A study of Danio rerio with 6 samples.

Results

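The genes described here are the ligands, receptors, inhibitors and nuclear effectors of Wnt, bone morphogenetic protein (BMP) and transforming growth factor *β* (TGF-*β*), fibroblast growth factor (FGF) and Hedgehog signalling. Their members were chosen by the start of the gene symbol alone (such as *wnt*, *fzd*, *bmp*, *smad*, *fgf*, *shh* or *gli*), and 120 of the 15502 probe sets tested met this rule. Of these, 119 carried 1 symbol and stood for 98 genes. The other was annotated to both *wnt8-2* and *wnt8a* and is counted among the members but in no pathway. A group of 8 probe sets met the rule by spelling only, since their genes (*bmp2k*, *fgfr1op2*, *smox*, *spryd4*, *spryd7a* and *spryd7b*) are not pathway components, and these are described last. The remaining 111 probe sets fell into 35 for Wnt, 45 for BMP/TGF-*β*, 22 for FGF and 9 for Hedgehog signalling.

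All 6 samples came from untreated adult zebrafish of the line Tg(3.2TalphaCP:EGFP), whose transgene uses regulatory sequence of the cone transducin *α* gene *gnat2* to express EGFP in cones. Neural retinae from several fish, dissected away from pigment epithelium and lens, were pooled, dissociated with trypsin and sorted by fluorescence into GFP-positive and GFP-minus cells, with 3 biological replicates each and 1 Affymetrix GeneChip Zebrafish array per sample. Both populations carry cone cells as their tissue label, whereas the GFP-minus samples are, by the population label, cells sorted without the reporter signal. Values were deposited on a log2 scale after GCRMA (a background correction, normalization and probe summary for Affymetrix arrays), and a difference is always the GFP-positive mean minus the GFP-minus mean.

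These pathways carry signals between cells. Wnt ligands bind Frizzled receptors and stabilise *β*-catenin, which acts with TCF/LEF transcription factors. BMP and TGF-*β* ligands assemble type I and type II receptor kinases that phosphorylate SMAD proteins, FGF ligands activate receptor tyrosine kinases upstream of the MAP kinase cascade and of Ets factors, and Hedgehog ligands release Smoothened from inhibition and so change the activity of GLI factors. In the retina they are best known from patterning of the eye and from the response of Müller glia to injury in zebrafish.

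The sort was checked against marker genes. Of 11 measured cone markers, 10 were higher in GFP-positive cells and none was lower, and their summed level (log2) lay at 16.1–16.4 in GFP-positive and at 8.20–11.3 in GFP-minus arrays, the highest of the latter being replicate 3. None of the 4 measured rod markers passed the test, and they were high in both populations (15.7–16.1 against 14.3–15.4). All 4 were nevertheless higher in GFP-positive arrays without overlap (13.9% of all probe sets), from 1.88-fold for *gnat1* to 4.40-fold for *nr2e3*. Leukocyte and erythrocyte markers went the other way, with 8 of 10 and 6 of 7 lower in GFP-positive cells. The median of all probe sets per array ranged from 4.58 to 4.61 for GFP-positive samples and from 4.78 to 4.86 for GFP-minus samples. In such bulk samples, fewer cells of a type and less RNA per cell cannot be told apart.

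Most of the signalling probe sets were dim and did not separate the populations. At a limma adjusted p under 0.05, GFP-positive cells had higher values for 2 of the 120 members and lower values for 5. Over all tested probe sets, 2.99% were called higher and 4.69% lower. Before adjustment, 3 members were higher and 6 lower at p under 0.05 by limma, against 1658 and 1618 of the 15502 tested probe sets. The arrays of the populations did not overlap for 7 members in the higher direction (13.9% of all probe sets) and for 6 in the lower direction (13.0% of all probe sets). The median difference was 0.01 over the members and 0.01 over all probe sets. Only 18 members (15.0%) reached the median level of all probe sets, 4.79, and 40 (33.3%) varied by less than 0.1 over the 6 arrays, against 18.7% of all probe sets. On all 6 arrays 17 members (14.2%) lay within 0.01 of the lowest value of the data, 2.17, against 9.32% of all probe sets. Within this tolerance a value is called the lowest value. Such values cannot be told from background.

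Ligands were the dimmest group. None of the 40 ligand probe sets (37 genes) passed the test in either direction (limma, and 0 at an unadjusted p under 0.05), 12 of them lay at the lowest value on every array, and 22 (55.0%) varied by less than 0.1. The highest value of these 40 on any array was 4.43. Some TGF-*β* family ligands whose symbols do not meet the rule, named after their values were seen, were brighter. *inhbb* had means of 9.25 in GFP-positive and 9.44 in GFP-minus arrays, *inhbaa* 7.18 and 6.76, and *mstnb* 7.56 and 5.47. None passed the test as deposited (limma adjusted p = 0.849, 0.323 and 0.118). *mstnb* was higher without overlap (13.9% of all probe sets), at 7.10, 7.44 and 8.14 against 6.45, 5.16 and 4.79. It was called higher without dim probe sets, after median centring and after scaling to the hybridization controls, and in no other fit. Other such ligands (*ndr1*, *ndr2*, *spaw*, *amh* and *admp*) had population means of no more than 2.89. The 10 Wnt ligand probe sets with 1 symbol lay between 2.17 and 2.90. The largest difference among them was that of *wnt2*, a ligand of *β*-catenin signalling. It lay at 2.37, 2.34 and 2.90 in GFP-positive arrays, against 2.76, 2.21 and 2.20 in GFP-minus arrays. These overlapped. The probe set annotated to both *wnt8-2* and *wnt8a* was brighter, at 4.04, 3.42 and 3.13 against 2.81, 2.53 and 3.13. Its difference of 0.70 was larger and did not pass (limma adjusted p = 0.289). Among 17 BMP/TGF-*β* ligand probe sets, which covered *bmp2a*, *bmp2b*, *bmp4*, *bmp7a* and several *gdf* genes, the values lay between 2.17 and 3.40. *tgfb1a*, the only TGF-*β* ligand among the members, lay more than 0.01 above the lowest value on a single array, GFP-minus replicate 2 (3.16). The 4 Hedgehog ligand probe sets, *shha*, *shhb*, *ihha* and *ihhb*, lay between 2.17 and 2.31.

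FGF ligands gave the brightest ligand signal among the members, yet it did not separate the populations beyond the spread between arrays. *fgf24*, a ligand of the FGF8 subfamily in fish, lay at 3.22, 4.43 and 3.95 in GFP-positive and at 3.22, 3.24 and 3.26 in GFP-minus arrays (difference 0.63, standard error 0.33, limma adjusted p = 0.379). GFP-positive replicate 1 overlapped the GFP-minus arrays. The other 8 FGF ligand probe sets, *fgf2*, *fgf3*, *fgf4*, *fgf6a*, *fgf8a*, *fgf8b*, *fgf10a* and *fgf18a*, had population means of no more than 2.46.

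The largest difference of any member was in a Frizzled receptor. *fzd2*, which encodes a seven-pass membrane receptor for Wnt ligands, lay at 2.85, 3.51 and 3.001 in GFP-positive and at 6.54, 8.30 and 7.79 in GFP-minus arrays. Every GFP-minus array lay more than 3 log2 units above the highest GFP-positive array. The means were 3.12 ± 0.35 and 7.54 ± 0.91 (SD, n = 3 arrays each), a difference of -4.42 with a 95% confidence interval of -5.82 to -3.02, so that the GFP-positive level was 21.4-fold lower (limma adjusted p = 0.0185). Because the GFP-positive values were close to background, the fold depends on the background step. The call held with GFP-minus replicate 1 left out (adjusted p = 0.0126). It was lost with any other array left out, with adjusted p between 0.0568 and 0.0887. Without GFP-minus replicate 2 or 3 the difference was -4.04 or -4.30. Without GFP-positive replicate 1, 2 or 3 it was -4.29, -4.62 or -4.36. In each of the fits that lost it, calls also fell over all probe sets, to 0.66% to 2.08% higher and 1.38% to 2.88% lower.

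The other 11 Frizzled probe sets, from *fzd5*, *fzd7a*, *fzd7b*, *fzd8a*, *fzd8b*, *fzd9b* and *fzd10*, did not pass the test. Named after its values were seen, *fzd8a* was the next in size, with 4.89 ± 0.50 in GFP-positive and 4.39 ± 0.17 in GFP-minus samples (adjusted p = 0.419). Its other probe set had means of 2.34 and 2.33. A probe set of *fzd9b*, also named after its values were seen, did not overlap between the populations (2.67 ± 0.05 against 2.81 ± 0.06), with an adjusted p of 0.175. These values were dim, and the gene's other probe set stayed at 2.34 on all arrays. Among the Wnt receptors, *fzd2* alone therefore differed at the threshold.

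The 13 probe sets for receptors of BMP and TGF-*β* (8 genes) held 1 call higher and 2 calls lower in the GFP-positive population, beside 2.99% and 4.69% of all probe sets, and the other 10 did not pass the test. *tgfbr2b*, a type II receptor that binds TGF-*β* itself, lay at 2.63, 2.61 and 2.63 in GFP-positive and at 4.01, 3.99 and 4.21 in GFP-minus arrays, without overlap. It was 2.72-fold lower (difference -1.44, 95% confidence interval -1.63 to -1.26, limma adjusted p = 0.00336), and remained called whichever array was left out. The GFP-positive values were nearly constant (SD 0.01) and close to the lowest value, so the fold and its interval depend on the background step. Its other probe set stayed at 2.28 on all arrays.

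*acvrl1*, known in mammals and zebrafish as the type I receptor for circulating BMPs on vessel endothelium, lay at 2.81, 3.06 and 2.42 in GFP-positive and at 4.38, 4.05 and 4.11 in GFP-minus arrays. The groups did not overlap, and the gene was 2.67-fold lower (difference -1.42, standard error 0.20, limma adjusted p = 0.0274). With any 1 of the 6 arrays left out, the difference was between -1.56 and -1.24 and no longer passed (adjusted p between 0.0592 and 0.0881). Of the vessel markers, 3 were measured and none passed the test. Their summed level was 5.34–5.50 in GFP-positive and 5.85–7.69 in GFP-minus arrays, with *kdrl*, an endothelial VEGF receptor, at 4.37, 4.25 and 4.53 against 5.02, 5.44 and 7.48. The groups were not apart for *tie1* (2.30, 2.29 and 2.38 against 2.30, 2.30 and 2.36) or *tek* (4.30, 4.15 and 3.62 against 4.36, 4.30 and 4.52). The part of vessel cells in the *acvrl1* difference was not tested.

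*bmpr1aa*, a type I BMP receptor, was the only pathway member called higher in GFP-positive cells. Its brightest probe set lay at 7.69, 7.76 and 7.69 in GFP-positive and at 6.40, 6.17 and 6.02 in GFP-minus arrays. All GFP-positive arrays were above all GFP-minus arrays, and the means, 7.71 ± 0.04 and 6.20 ± 0.20 (SD, n = 3 arrays each), differed 2.86-fold (difference 1.52, 95% confidence interval 1.23 to 1.80, limma adjusted p = 0.00651). The call held without each array in turn, with differences of 1.43 to 1.62. After scaling to the hybridization controls the difference was 0.78 and the adjusted p 0.056. The gene's other 2 probe sets were dim, at 3.22, 3.26 and 3.68 against 3.17, 3.20 and 3.17, and at 2.61, 2.33 and 2.21 against 2.21 on all GFP-minus arrays, with differences of 0.20 (adjusted p = 0.507) and 0.17 (adjusted p = 0.475).

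*acvr2ba*, a type II receptor for activins and BMPs, was bright in both populations, and its 3 probe sets did not pass the test. Values of the brightest were 9.78, 9.33 and 9.09 in GFP-positive arrays, against 8.83, 8.10 and 8.26 in GFP-minus arrays, without overlap (difference 1.00, standard error 0.28, limma adjusted p = 0.133). It passed when dim probe sets were left out (adjusted p = 0.045) and after median centring (1.23, adjusted p = 0.034), and its difference was 0.27 after scaling to the hybridization controls (adjusted p = 0.421). Another probe set had overlapping values of 8.15, 7.95 and 8.20 against 8.10, 7.55 and 7.92 (difference 0.24). In the dimmest, GFP-positive replicate 1 (5.11) lay below the GFP-minus arrays (5.30, 5.31 and 5.30), while replicates 2 and 3 lay above them at 6.29 and 6.24, and without replicate 1 the difference rose from 0.58 to 0.96 (adjusted p = 0.00633). After scaling to the hybridization controls the differences of these dimmer probe sets were -0.50 and -0.16.

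FGF receptors and the Hedgehog signal transducer did not pass the test. Of 6 probe sets for FGF receptor tyrosine kinases (*fgfr1a*, *fgfr2*, *fgfr3*, *fgfr4* and the kinase-less *fgfrl1a*), none reached an unadjusted p under 0.05. The brighter *fgfr2* probe set lay at 4.34, 4.73 and 3.58 in GFP-positive and at 4.26, 4.33 and 4.75 in GFP-minus arrays, with overlap. *fgfr4* had the largest difference (3.18, 3.39 and 4.03 against 3.18, 3.09 and 3.09, difference 0.42, limma adjusted p = 0.429). *smo*, which encodes Smoothened, lay at 3.43, 3.66 and 3.38 against 3.38, 3.38 and 3.31 (difference 0.13, adjusted p = 0.466). No *ptch* gene was among the members.

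Extracellular modulators of the ligands gave no call in 13 probe sets (limma; 0 at an unadjusted p under 0.05). *dkk1b*, a secreted Wnt inhibitor that binds the LRP co-receptors, was the brightest, and its arrays spread widely within each population, at 4.70, 6.33 and 6.78 in GFP-positive arrays, against 5.31, 6.36 and 4.85 in GFP-minus samples. *dkk3b*, a divergent Dickkopf member, lay at 3.81, 3.81 and 3.76 against 3.81, 4.16 and 4.71 (difference -0.43, adjusted p = 0.42). Neither separated the populations. *bmper*, which encodes a secreted BMP-binding protein, had the largest difference of this group, with values of 2.80, 4.14 and 4.72 in GFP-positive arrays, against 2.54, 2.57 and 2.82 in GFP-minus arrays. Here GFP-positive replicate 1 overlapped the GFP-minus arrays (difference 1.24, standard error 0.54, limma adjusted p = 0.297), and without it the difference was 1.79 (adjusted p = 0.0497). The BMP antagonist genes *chrd*, *nog1*, *nog2* and *nog3* had population means of no more than 3.46.

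Intracellular transducers and inhibitors were among the brighter members and likewise gave no call in 16 probe sets (limma; 0 at an unadjusted p under 0.05). *smad7*, an inhibitory SMAD that blocks type I receptors, lay at 9.83, 9.33 and 9.19 in GFP-positive and at 9.01, 8.47 and 9.10 in GFP-minus arrays. The groups were apart but close (difference 0.59, standard error 0.26, limma adjusted p = 0.301). The receptor-activated *smad1*, *smad2*, *smad3a*, *smad3b* and *smad5* and the inhibitory *smad6a* had differences between -0.07 and 0.38. *axin1*, a scaffold of the complex that degrades *β*-catenin, was detected by 2 probe sets, at 7.21, 6.94 and 6.59 against 7.20, 7.24 and 6.73 and at 6.06, 6.01 and 6.01 against 6.01, 6.33 and 6.00. Both overlapped. *axin2*, a scaffold that is also a common target of *β*-catenin, was dimmer, at 3.97, 3.43 and 3.49 against 4.08, 3.74 and 3.73 (difference -0.22, adjusted p = 0.612).

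Of the Sprouty genes, which encode feedback inhibitors of FGF receptor signalling, *spry4* lay at 7.27, 7.63 and 7.52 in GFP-positive and at 7.93, 7.60 and 8.26 in GFP-minus arrays, with overlap (difference -0.46, adjusted p = 0.308). The brightest *spry2* probe set lay at 3.66, 4.00 and 4.83 against 3.44, 3.61 and 3.66, a difference of 0.59 (adjusted p = 0.416). *fgf13a*, an FGF homologous factor that stays inside the cell and is known in mammals to bind sodium channels, was bright and close to equal, at 8.07, 8.27 and 8.05 against 8.11, 8.29 and 7.86. Its difference was 0.05 with a 95% confidence interval of -0.31 to 0.40.

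The transcription factors at the end of the Wnt and Hedgehog pathways were dim. *lef1* and *gli2b* lay at the lowest value on all arrays. *tcf7l1b*, a TCF factor that mainly represses, was the brightest of the Wnt group at 3.57, 3.56 and 3.56 in GFP-positive arrays, against 3.57, 3.92 and 3.80 in GFP-minus arrays (difference -0.20, limma adjusted p = 0.35). *gli2a* lay at 2.94, 2.59 and 2.56 against 2.56, 2.52 and 2.38, and *gli3* at 2.52, 3.06 and 2.47 against 2.61, 2.51 and 2.44. None of these 8 probe sets was called (0 at an unadjusted p under 0.05).

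A matrix gene among the members was lower in GFP-positive cells, and TGF-*β* activity itself was not measured. *tgfbi*, which encodes a secreted matrix protein named for its induction by TGF-*β* in human cells, lay at 3.92, 3.90 and 4.33 in GFP-positive and at 6.30, 6.28 and 6.50 in GFP-minus arrays. The groups were far apart, at 4.05 ± 0.24 and 6.36 ± 0.12 (SD, n = 3 arrays each), or 4.96-fold lower in GFP-positive cells (difference -2.31, 95% confidence interval -2.71 to -1.91, limma adjusted p = 0.0054). The call held without each array in turn, with differences between -2.45 and -2.23.

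*fzd2*, *tgfbr2b*, *acvrl1* and *tgfbi* were lower where markers of blood cells, and some markers of other cell types, were lower. The summed level of 10 leukocyte markers was 11.3–12.4 in GFP-positive and 15.3–15.7 in GFP-minus arrays, and that of 7 erythrocyte markers was 11.6–12.2 and 15.4–15.7. None of these markers lay at the lowest value on all arrays. Of 9 markers of inner retinal neurons 3 were lower and none was higher (12.8–12.9 against 13.3–13.5). These were *thy1* (difference -3.86), *slc32a1* (-0.84) and *pax6a* (-0.40). Of 8 Müller glia markers 3 were higher and 1 was lower (14.0–14.6 against 13.7–14.5). The lower one, *slc1a3a*, lay at 4.45, 4.29 and 3.48 against 7.51, 9.28 and 8.27, while *rlbp1a*, *gfap* and *vim* were the higher ones. The part of these cell types in the differences was not tested.

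*tgfbi* also stayed past the threshold in all 6 alternative fits that used every array. *tgfbr2b* did so in the 5 it entered, being too dim for the fit without dim probe sets.

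Further genes of the same pathways, whose symbols do not meet the rule, were taken from lists of 158 genes, of which 82 were measured. Calls were made for 6 of them, 1 higher (1.22% of those measured) and 5 lower (6.10%) in the GFP-positive samples. With 1 probe set per gene, 3.40% of all genes were called higher and 5.83% lower. By list, there were no calls in 23 Wnt and 11 Hedgehog genes, 2 lower in 32 BMP/TGF-*β* genes, and 1 higher and 3 lower in 16 FGF genes. The median differences were 0.07, 0.17, 0.09 and 0.02 in this order, beside 0.01 over all probe sets.

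Both called BMP/TGF-*β* genes are known as targets of these signals in mammals. *id3*, an inhibitor of basic helix-loop-helix factors and a target of BMP signalling, lay at 3.91, 3.89 and 3.91 in GFP-positive and at 6.61, 7.42 and 8.10 in GFP-minus arrays. It was 11.1-fold lower without overlap (difference -3.48, standard error 0.41, limma adjusted p = 0.0181). *serpine2*, a secreted serine protease inhibitor, lay at 3.42, 3.42 and 3.50 against 5.22, 5.83 and 6.34 and was 5.10-fold lower (difference -2.35, adjusted p = 0.0225). Since the GFP-positive values of both genes were dim and nearly constant (SD 0.01 and 0.05), these folds depend on the background step. Both calls were lost without GFP-positive replicate 1, 2 or 3 or GFP-minus replicate 2: the differences were -3.48, -3.47, -3.48 and -3.45 for *id3* and -2.34, -2.34, -2.38 and -2.33 for *serpine2*, with adjusted p between 0.0654 and 0.0991.

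Among the calls in the FGF list, 2 related Ets factors that serve as targets of FGF signalling in zebrafish went in opposite directions. *etv4* lay at 5.00, 5.20 and 4.86 in GFP-positive and at 7.59, 9.02 and 8.31 in GFP-minus arrays, 9.79-fold lower without overlap (difference -3.29, standard error 0.40, limma adjusted p = 0.0194). *etv5b* lay at 9.99, 10.07 and 9.88 against 9.00, 8.89 and 9.13, 1.96-fold higher and also without overlap (difference 0.97, standard error 0.08, adjusted p = 0.00989). The *etv5b* call held without each array in turn and was lost after hybridization-control scaling (0.24, adjusted p = 0.499). The related *etv5a*, named after its values were seen, overlapped, at 10.96, 10.67 and 9.85 against 10.09, 9.53 and 10.17. It did not pass (difference 0.56, limma adjusted p = 0.484). The *etv4* call was lost without GFP-positive replicate 1, 2 or 3 (-3.28, -3.38 and -3.21) or GFP-minus replicate 3 (-3.29), with adjusted p between 0.0687 and 0.092.

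The other calls in the FGF list were small. *ptpn11a*, a gene for the tyrosine phosphatase SHP2, lay at 7.30, 6.89 and 7.01 against 8.16, 7.91 and 7.80 (difference -0.89, adjusted p = 0.0436). Its second probe set was at background. *gab1*, an adaptor of receptor tyrosine kinases, lay at 5.47, 5.34 and 5.31 against 6.09, 6.49 and 6.02 (difference -0.83, limma adjusted p = 0.0457). Neither *ptpn11a* nor *gab1* overlapped between the populations. The related *ptpn11b*, named after its values were seen, went the other way, at 9.53, 9.51 and 10.01 against 7.83, 8.40 and 8.89. It did not overlap (13.9% of all probe sets) and did not pass (difference 1.31, limma adjusted p = 0.103). *ptpn11b* was called higher without dim probe sets and after median centring. With any 1 array left out, the *ptpn11a* difference was between -1.005 and -0.79 and did not pass. The *gab1* call held without GFP-minus replicate 2 alone (-0.68, adjusted p = 0.0386) and was lost without GFP-minus replicate 1 or 3 (-0.88 and -0.92) or GFP-positive replicate 1, 2 or 3 (-0.88, -0.81 and -0.80).

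Of the 8 probe sets that met the rule by spelling only, 1 was higher and 1 lower in GFP-positive cells, beside 2.99% and 4.69% of all probe sets. *smox*, which encodes spermine oxidase, an enzyme of polyamine breakdown, lay at 9.72, 9.65 and 9.26 in GFP-positive and at 10.64, 11.11 and 10.78 in GFP-minus arrays, 2.46-fold lower without overlap (difference -1.30, standard error 0.19, limma adjusted p = 0.0291). Its dimmer probe set overlapped, at 4.38, 3.18 and 3.23 against 5.26, 4.19 and 4.49 (difference -1.05, adjusted p = 0.313). *fgfr1op2*, named for a fusion with an FGF receptor gene in human leukaemia, lay at 6.55, 6.66 and 6.61 against 6.34, 6.36 and 6.43. Its difference of 0.23 (adjusted p = 0.0484) was small and turned to -0.50 after hybridization-control scaling (adjusted p = 0.161). With any 1 array left out, neither call was kept, with differences of -1.40 to -1.16 for *smox* and 0.21 to 0.26 for *fgfr1op2*.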

How the data were processed

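The 6 arrays were grouped by their labels into 3 GFP-positive and 3 GFP-minus samples. The authors deposited log2 values per probe set, made with GCRMA. No GCRMA version or setting was found in the labels, and the article does not describe the array analysis. GCRMA corrects background from probe sequence, so low signals share a lowest value and differences of dim genes rest on that step. Arrays have no read depth, and their number limits the precision. Gene symbols came from the platform annotation, with 119 of 119 member symbols matched to RefSeq by gene ID and 0 changed. No genome build is named, so no coordinates are given.

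After 115 control probe sets were left out, 15502 probe sets were fitted in R 4.3.3 with the lmFit and eBayes functions of limma 3.58.1. Tests were two-sided, p-values were adjusted by Benjamini-Hochberg over every fitted probe set, and the threshold was 0.05. The prior of eBayes carried 0.519 degrees of freedom and thus little weight. In 1 set of simulated data with the real spread, differences were set in probe sets above the median level. Log2 differences of 1, 2 and 4 were given to 67, 67 and 66 of the 15502 probe sets. The procedure recovered 10.4% of log2 differences of 1, 37.3% of 2 and 83.3% of 4. Of the simulated calls, 7.45% were false. The real fit called more probe sets, 463 higher and 727 lower, so its adjustment was less strict than in the simulation. These rates therefore do not carry over to the real fit. With 3 arrays per population, a probe set that did not pass is not shown to be equal in the populations. Members and lists were chosen with earlier results of these data known. Named genes were all called members, the brightest and the most different probe set of each role, their further probe sets, and called genes of the pathway lists, which use the brightest probe set of a gene. The labels do not say whether samples of the same number share fish, and p-values measure the spread between these samples.

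Alternatives were the replicate number as a block, dim probe sets left out (mean below the median of all), quantile normalization, median centring, scaling to 18 hybridization-control probe sets, eBayes with trend and robust prior, each array left out, a 2-fold minimum, an adjusted p under 0.01 and 1 probe set per gene.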

Additional observations from a re-analysis of the deposited data

How the results depend on the processing

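The 5 lower member calls were kept under every scale tried between arrays, while the higher calls and the number of further calls depended on it. Median centring moved the median of all probe sets by 0.23 and scaling to the hybridization controls by -0.74. Against 2 higher and 5 lower member probe sets as deposited, median centring gave 54 and 5, of which 38 of the 54 varied by less than 0.1 as deposited, and control scaling gave 0 and 15. Over all probe sets, 2.99% were called higher and 4.69% lower as deposited. Median centring gave 39.7% and 7.11%, and control scaling 1.26% and 21.0%. Higher calls were 38.9% of all calls as deposited, 84.8% after median centring and 5.66% after control scaling. The median member difference, 0.01 as deposited, was 0.23 and -0.73. By pathway, median centring called 19 Wnt, 20 BMP/TGF-*β*, 6 FGF and 7 Hedgehog probe sets higher, beside 39.7% of all probe sets. Among probe sets called in at least 1 of the fits compared, *fgfr1op2* turned to -0.50 under control scaling. The second *ptpn11a* probe set turned to 0.22 under median centring. A further 35 turns of sign over the alternative fits were of named member probe sets called in neither fit. Under control scaling they included *smad7* (0.59 to -0.14), *fgf24* (0.63 to -0.11), the brightest *spry2* probe set (0.59 to -0.15), *dkk1b* (0.43 to -0.31) and *fgfr4* (0.42 to -0.32). Of the pathway genes outside the member list, 1 higher and 5 lower as deposited, median centring gave 24 and 5, and control scaling 1 and 19.

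In a fit with a replicate block, 0 higher and 2 lower members (*tgfbi*, *tgfbr2b*) and 0 and 0 listed genes remained. Over all probe sets it called 1.25% higher and 1.65% lower, against 2.99% and 4.69% without the block. Same-numbered samples deviated with correlations of 0.555, 0.0589 and 0.266, and 2 of 6 arrays correlated best with their own number. The labels do not say whether they are paired, and they were fitted as unpaired. In the block fit the adjusted p was 0.0534 for *bmpr1aa* and 0.0786 for *etv5b*. Leaving out 1 array gave 1 to 3 higher and 2 to 3 lower members, and 1 to 2 higher and 0 to 3 lower listed genes. Over all probe sets these fits called 0.66% to 2.08% higher and 1.38% to 4.77% lower. Without dim probe sets (18 members fitted) 2 members were higher and 3 lower, and 6 and 4 listed genes. Of all probe sets in that fit, 10.0% were higher and 11.4% lower. Quantile normalization gave 3 and 5 members and 2 and 3 listed genes (4.38% and 4.92% of all probe sets). The trend and robust prior gave 1 and 5 members (2.68% and 4.46% of all probe sets). A 2-fold minimum left 1 and 5 members and 0 and 3 listed genes (2.03% and 4.11% of all probe sets). A limma adjusted p under 0.01 left 1 and 2 members and 1 and 0 listed genes (0.323% and 1.30% of all probe sets). The causes were not tested. Signals near 2.17 limit what the dim ligands can show.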
